A study of Homo sapiens with 6 samples.

Results

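A set of 10 genes that build and position chromatin loops was followed through p53 activation in HCT116 cells, a human colorectal carcinoma line with wild-type p53. These are SMC1A, SMC3 and RAD21, which form the cohesin ring, STAG1 and STAG2, which bind it, the loader NIPBL, the regulators PDS5A and PDS5B, and the DNA-binding factors CTCF and YY1. They were chosen by gene symbol, and all 10 were found among the 57905 genes of the count table. All 10 also passed the low-count filter that left 16565 genes to test.

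Cohesin is a ring-shaped complex that encloses chromatin fibres. In interphase it is loaded with the help of NIPBL and extrudes loops until it meets CTCF bound at a convergent pair of sites, and these loops underlie domains and many contacts between enhancers and promoters. After DNA replication the same ring holds sister chromatids together until mitosis. PDS5 proteins bind the ring and act both in its release from chromatin and in its stable retention, while YY1 binds promoters and enhancers and can bridge them.

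RNA was taken from 2 biological replicates in each of 3 conditions, 6 libraries in all. Nut 0h cells, the control, received the vehicle DMSO, and Nut 1h and Nut 10h cells received Nutlin-3a at 10 µM, which keeps p53 from binding its negative regulator HDM2, for 1 h or 10 h. The labels name no other change of genotype or treatment, and all cells were of the same line, so the results describe 1 line. The labels name biological replicates without saying that they came from separate cultures. The p-values rest on the spread between these samples, with the estimate for each gene moderated by those of the other tested genes.

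Between 26068076 and 35473485 reads were assigned to genes per library, and the 10 genes had between 512 and 19762 counts each in a library. MDM2, the p53 target that encodes HDM2, rose by 2.19 ± 0.13 on the log2 scale at Nut 1h (SE, n = 2 per condition, edgeR adjusted p = 3.54e-08) and by 3.75 ± 0.13 at Nut 10h (adjusted p = 4.51e-10). The cell cycle inhibitor CDKN1A differed by 0.05 ± 0.10 at Nut 1h (adjusted p = 0.704) and rose by 3.84 ± 0.11 at Nut 10h (adjusted p = 1.03e-10). Of 8 colorectal epithelial markers, 6 were expressed, while VIL1 and CDX1 were below 1 CPM, a count scaled to library size, in every library. The summed level of the 8 was 4977 to 5644 CPM at Nut 0h, 3518 to 3715 after 1 h and 6336 to 7308 after 10 h, carried mostly by KRT8 and KRT19. EPCAM and CDH1 went against the sum at Nut 1h (0.46 and 0.51), and EPCAM did so at Nut 10h (-0.32). Of 10 markers of leukocytes, endothelium and fibroblasts, 8 were below 1 CPM in every library, DCN had no count, and the sum of the list, made up mostly by COL1A1, was 40.1 to 43.2 CPM in control cells, 24.6 to 26.3 after 1 h and 38.1 to 39.6 after 10 h. The part of these marker levels in the results was not tested.

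The promoter sequences of the gene with the largest fall at Nut 10h, of both paralogue pairs and of the gene that was lower at both times are shown first, to stand beside the responses given further on. Windows from 250 bases before to 50 bases after an annotated start were read from RefSeq (GRCh38.p14) for 9 of the 10 genes, all but RAD21. Of these, SMC1A has 2 windows and STAG2 has 3, which makes 12 windows. The stretches below run from 150 bases before the start through the first 10 transcribed bases, 5′ to 3′ on the strand of the gene, and the first window is shown for STAG2. Capitals mark the letters of 8 motifs searched on both strands, namely the YY1 core ATGGCG, the CCAAT box, the GC box GGGCGG, the E2F core TTCGCGC or TTGGCGC, the TATA box TATAAA, the E box CACGTG, the NRF1 core GCATGCG and the ETS core CCGGAAG. The stretches lie at chr10:110567545-110567704 (SMC3, plus strand), chr3:136752369-136752528 (STAG1, minus strand), chrX:123960410-123960569 (STAG2, plus strand), chr4:39977902-39978061 (PDS5A, minus strand), chr13:32586302-32586461 (PDS5B, plus strand) and chr14:100238994-100239153 (YY1, plus strand).
SMC3: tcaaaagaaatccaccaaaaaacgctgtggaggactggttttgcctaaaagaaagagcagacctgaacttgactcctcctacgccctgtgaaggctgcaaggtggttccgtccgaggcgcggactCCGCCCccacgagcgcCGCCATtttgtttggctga
STAG1: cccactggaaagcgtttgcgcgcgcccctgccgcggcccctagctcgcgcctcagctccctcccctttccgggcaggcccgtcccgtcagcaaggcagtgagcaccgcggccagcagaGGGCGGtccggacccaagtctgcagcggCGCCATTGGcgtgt
STAG2: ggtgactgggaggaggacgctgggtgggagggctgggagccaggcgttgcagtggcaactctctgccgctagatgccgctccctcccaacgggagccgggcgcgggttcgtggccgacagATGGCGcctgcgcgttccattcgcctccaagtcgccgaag
PDS5A: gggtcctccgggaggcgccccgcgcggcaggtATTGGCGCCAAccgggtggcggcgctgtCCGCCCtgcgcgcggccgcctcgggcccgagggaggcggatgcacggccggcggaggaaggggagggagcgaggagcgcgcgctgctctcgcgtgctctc
PDS5B: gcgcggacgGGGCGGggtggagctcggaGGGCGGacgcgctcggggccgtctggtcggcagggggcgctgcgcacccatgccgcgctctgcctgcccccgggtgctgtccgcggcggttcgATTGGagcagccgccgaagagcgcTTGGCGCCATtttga
YY1: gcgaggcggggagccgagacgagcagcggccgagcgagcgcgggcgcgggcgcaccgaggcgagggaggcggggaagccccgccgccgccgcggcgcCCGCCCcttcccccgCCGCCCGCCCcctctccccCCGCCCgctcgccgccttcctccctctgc

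In SMC3 a GC box and a reversed YY1 core lie in the last 25 bases before the start, and in STAG1 a reversed YY1 core shares 2 bases with a reversed CCAAT at the start itself. The PDS5A stretch holds a reversed CCAAT that shares 4 bases with an E2F core, which in turn overlaps its own reverse copy, and in PDS5B an E2F core shares 3 bases with a reversed YY1 core. The YY1 window holds 8 GC boxes over its whole length and none of the other letters. Over the 12 windows of the 9 genes, the GC box was found in all 12, where 45% of all 35116 RefSeq windows hold it. The YY1 core was found in 5 windows (10.7% of all windows), the E2F core in 5 (5.06%), CCAAT in 5 (34.6%) and the ETS core in 3 (10.3%). The 2 SMC1A windows overlap and hold the same ETS site, so that by gene the ETS core was in 2 of the 9. CCAAT was in 4 of the 9 genes, and the YY1 and E2F cores were in 5 each. TATAAA (11.5% of all windows), CACGTG (7.26%), GCATGCG (3.91%) and the p53 consensus of 2 half-sites at most 13 bases apart (0.0285%) were in none of them. The windows were rich in G and C, from 56% in SMC3 to 82.7% in YY1, beside a median of 58.7% over all windows. These matches are descriptions of the sequence and not binding sites.

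Most of the 10 genes were higher at the early time and lower at the late time. At Nut 1h, 9 of the 10 were higher than in control cells and 1, YY1, was lower, where 34.5% of all tested genes were called higher and 32.3% lower (edgeR quasi-likelihood test, adjusted p of at most 0.05). At Nut 10h, 8 were lower, none was higher, and STAG2 and NIPBL did not pass the test, where 14.9% of tested genes were called lower and 14.1% higher. The 10 genes had a median log2 fold change of 0.85 after 1 h and of -0.50 after 10 h, beside 0.05 and 0.00017 over all tested genes. All 10 had libraries that did not overlap between Nut 0h and Nut 1h, 9 higher and 1 lower, beside 44.2% and 40.6% of tested genes. For 9 of the 10, all but NIPBL, both Nut 10h libraries lay below both Nut 0h libraries, as they did for 30.4% of tested genes. With an offset for the GC content of transcripts, which went with the change at Nut 1h across the whole table, 6 of the 10 were higher and 2 lower early (23.3% and 22% of tested genes), with a median of 0.17, and 9 were lower late (20.5%). Both comparisons use the same Nut 0h libraries. Each library is a pool of cells, so fewer cells holding a transcript and less of it per cell cannot be told apart.

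**Figure D1:**
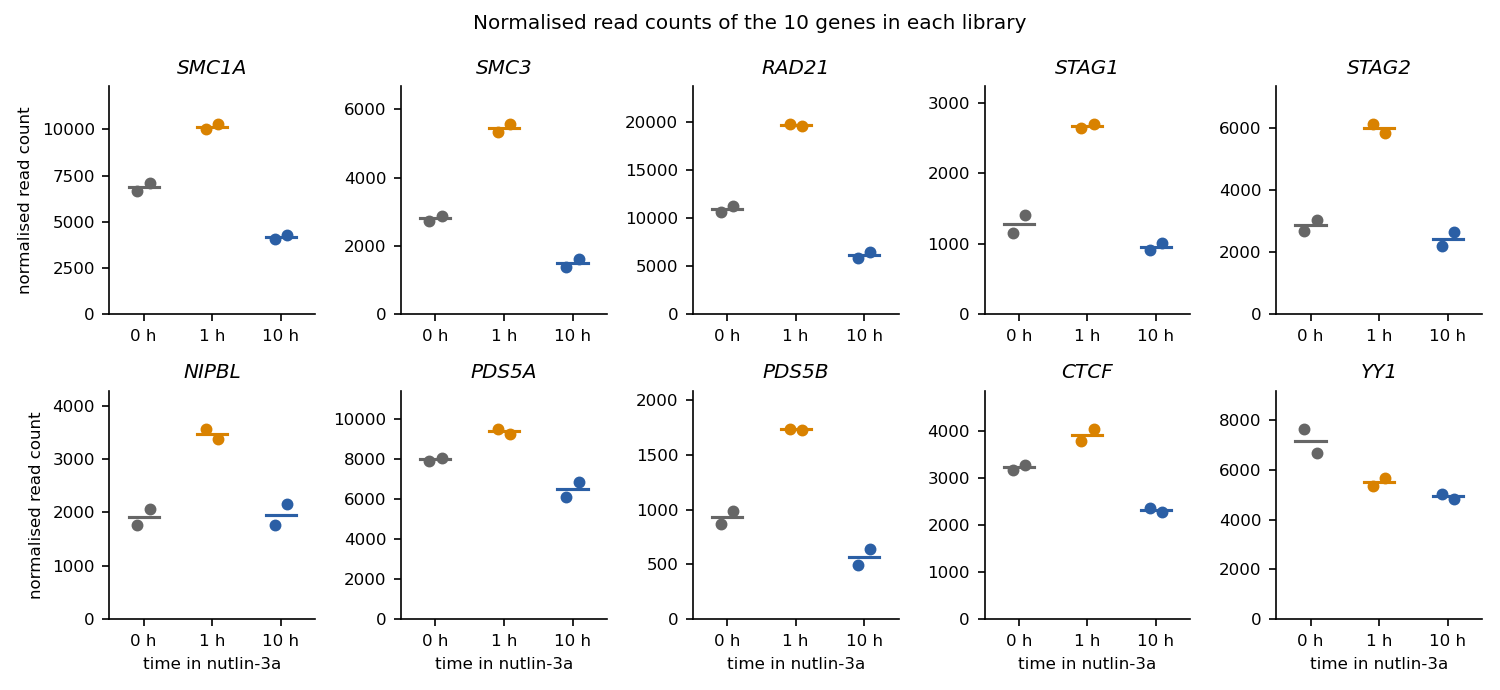
Normalised read count (vertical axis, from 0) of each gene in each library against time in Nutlin-3a. Points are libraries, bars the mean of 2. The 1 h libraries are highest for every gene but YY1, and the 10 h libraries lie lowest for every gene but NIPBL, whose 0 h and 10 h libraries overlap.

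The cohesin ring subunits rose and then fell together. SMC3 (ENSG00000108055, GRCh37 chr10:112327442-112365806), one of the long coiled-coil arms of the ring and the subunit acetylated to lock cohesion, had 2741 and 2891 normalised counts, that is, counts scaled to a common library size, in control cells, 5340 and 5573 after 1 h, and 1380 and 1613 after 10 h. No library of one condition overlapped another. It rose 1.94-fold at Nut 1h (log2 change 0.95 ± 0.10 SE, edgeR adjusted p = 1.76e-06) and fell by 0.91 ± 0.10 on the log2 scale at Nut 10h (adjusted p = 9.67e-06), to 0.531 of the control level and the largest fall of the 10. From Nut 1h to Nut 10h its level dropped 3.65-fold, a log2 change of -1.87, or -1.10 with an offset for GC content. With an offset for GC content its early difference was 0.16 (adjusted p = 0.0464). With a replicate block added to that offset it did not pass the test (0.16, adjusted p = 0.0582).

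SMC1A (ENSG00000072501, GRCh37 chrX:53401070-53449677), the other arm, had 6638 and 7112 normalised counts in control cells, 10012 and 10283 after 1 h, and 4083 and 4265 after 10 h. It rose 1.48-fold at Nut 1h (0.56 ± 0.09, adjusted p = 7.87e-05), and it was 0.607 of control at Nut 10h (log2 change -0.72 ± 0.09, adjusted p = 3.64e-05). With a smooth offset for transcript length in the fit, its difference at Nut 1h was 0.17 (adjusted p = 0.0963).

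RAD21 (ENSG00000164754), the kleisin that closes the ring and is cut by separase at anaphase, had the highest counts of the 10 in control cells and after 1 h. They were 10679 and 11284 in control cells, 19827 and 19575 after 1 h, and 5844 and 6452 after 10 h, and the coefficient of variation between replicates was 6.99% at most. It rose 1.79-fold at Nut 1h (0.84 ± 0.09, adjusted p = 3.06e-06, or 0.24 with the offset for GC content) and fell to 0.56 of control at Nut 10h (log2 change -0.84 ± 0.09, adjusted p = 1.16e-05).

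The STAG proteins, also called SA1 and SA2, are alternative subunits that tie the ring to CTCF and other partners. STAG2 (ENSG00000101972, GRCh37 chrX:123094062-123556514) had 2691 and 3040 normalised counts in control cells, 6125 and 5838 after 1 h, and 2213 and 2650 after 10 h. It rose 2.09-fold at Nut 1h (1.06 ± 0.11, adjusted p = 1.43e-06), and by 0.23 with the offset for GC content. At Nut 10h both libraries were below both control libraries, but by little, with a log2 change of -0.24 (95% confidence interval -0.47 to -0.0080, edgeR adjusted p = 0.113). The difference was -0.11 without Nut 10h replicate 1 (adjusted p = 0.560) and -0.15 without Nut 0h replicate 2 (adjusted p = 0.459). It passed the test without Nut 10h replicate 2 (-0.36, adjusted p = 0.0335), without the low-count filter (-0.28, adjusted p = 0.0428) and with an offset for GC content (-0.26, adjusted p = 0.00258) or length (-0.28, adjusted p = 0.0306).

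STAG1 (ENSG00000118007, GRCh37 chr3:136055078-136471245) had 1153 and 1414 normalised counts in control cells, 2639 and 2698 after 1 h, and 916 and 1004 after 10 h. It rose 2.08-fold at Nut 1h (1.06 ± 0.11, adjusted p = 1.81e-06), and by 0.42 with the offset for GC content. At Nut 10h it was lower, with a log2 change of -0.42 ± 0.11 (adjusted p = 0.0112). The control replicates differed by 14.4% as a coefficient of variation, and without Nut 0h replicate 2, the higher one, the difference at Nut 10h was -0.27 (adjusted p = 0.149).

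NIPBL (ENSG00000164190, GRCh37 chr5:36876871-37066515), the loader that also drives the motor activity of cohesin, went back to the control level. It had 1759 and 2073 normalised counts in control cells, 3566 and 3367 after 1 h, and 1768 and 2152 after 10 h. It rose 1.81-fold at Nut 1h (0.86 ± 0.11, adjusted p = 1.53e-05), and by 0.18 with the offset for GC content (adjusted p = 0.0379). At Nut 10h the libraries overlapped those of control cells, with a log2 change of 0.03 and a 95% confidence interval of -0.21 to 0.28 (adjusted p = 0.859).

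PDS5B (ENSG00000083642, GRCh37 chr13:33160589-33352157), also known as APRIN, had 871 and 987 normalised counts in control cells, 1737 and 1731 after 1 h, and 495 and 639 after 10 h. It rose 1.87-fold at Nut 1h (0.90 ± 0.12, adjusted p = 1.56e-05) and fell to 0.611 of control at Nut 10h (log2 change -0.71 ± 0.12, adjusted p = 0.000649), although its Nut 10h replicates had the widest spread of the 10 genes, with a coefficient of variation of 18%. The early call was lost with an offset for GC content (0.07, adjusted p = 0.506).

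PDS5A (ENSG00000121892, GRCh37 chr4:39824483-39979576) had 7871 and 8055 normalised counts in control cells, 9484 and 9233 after 1 h, and 6084 and 6852 after 10 h. Its changes were small, 0.23 ± 0.09 on the log2 scale at Nut 1h (adjusted p = 0.0393) and -0.30 ± 0.09 at Nut 10h (adjusted p = 0.0264). The early call was lost when any single library was left out (0.20 to 0.25) and with DESeq2 (0.18, adjusted p = 0.106), and turned to -0.36 (adjusted p = 0.000164) with the offset for GC content. The late call was lost without any one of 5 libraries, all but Nut 10h replicate 2, with differences down to -0.21 without Nut 10h replicate 1 (adjusted p = 0.216).

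CTCF (ENSG00000102974, GRCh37 chr16:67596370-67673080), the zinc finger protein at which extruding cohesin stops, was higher early and lower late. It had 3166 and 3274 normalised counts in control cells, 3788 and 4036 after 1 h, and 2355 and 2281 after 10 h, with no overlap between conditions. The rise at Nut 1h was 1.21-fold (0.28 ± 0.09, adjusted p = 0.0125), and it did not pass the test without Nut 0h replicate 1 (0.25, adjusted p = 0.109), without Nut 0h replicate 2 (0.29, adjusted p = 0.0544), without Nut 1h replicate 2 (0.23, adjusted p = 0.146) without the low-count filter (0.24, adjusted p = 0.0658) or with an offset for GC content (0.14, adjusted p = 0.086). At Nut 10h CTCF fell to 0.72 of control (log2 change -0.47 ± 0.09, adjusted p = 0.00121), a call that was kept with each library left out.

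YY1 (ENSG00000100811, GRCh37 chr14:100704635-100749125), a zinc finger factor bound at active promoters and enhancers, was the exception at Nut 1h. It had 7646 and 6679 normalised counts in control cells, 5366 and 5657 after 1 h, and 5046 and 4845 after 10 h, so that the treated libraries all lay below the controls. It was 0.769 of control at Nut 1h (log2 change -0.38 ± 0.10, adjusted p = 0.00315) and 0.69 of control at Nut 10h (-0.53 ± 0.10, adjusted p = 0.00084). With an offset for GC content the early value was -0.53 (adjusted p = 3.40e-05), and with one for length it was -0.61 (adjusted p = 0.000113). The early difference was -0.28 without Nut 0h replicate 1 (adjusted p = 0.0611) and -0.34 without Nut 1h replicate 1 (adjusted p = 0.0606). Between Nut 1h and Nut 10h YY1 differed by -0.16 (95% confidence interval -0.36 to 0.05, adjusted p = 0.164).

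**Figure D2:**
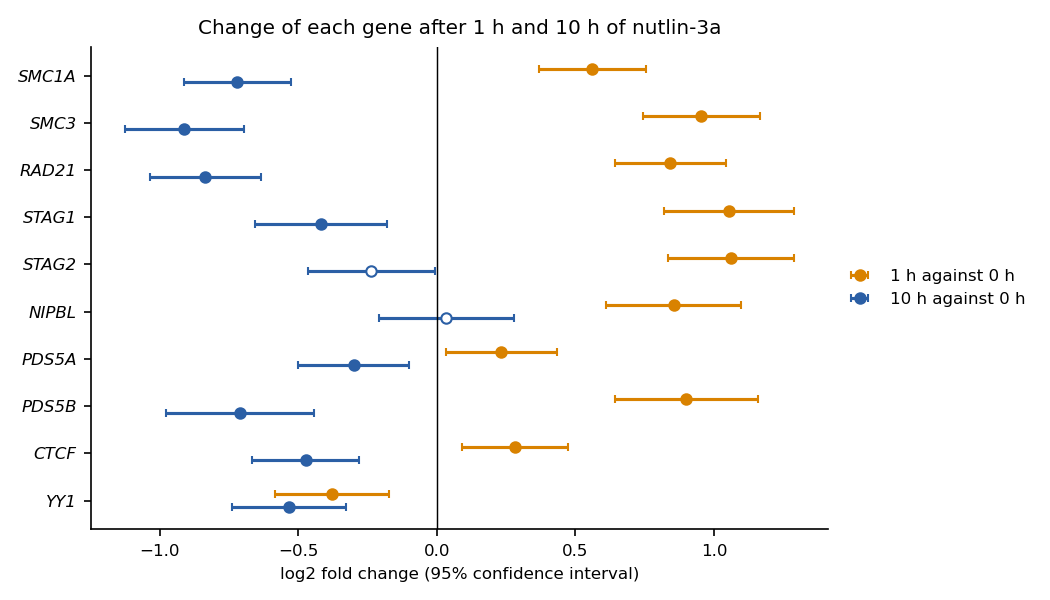
Log2 fold change of each gene against Nut 0h (horizontal axis) after 1 h and 10 h, with 95% confidence intervals. Filled points passed the edgeR test at an adjusted p of at most 0.05 and open points did not. YY1 lies left of 0 at both times, and STAG2 and NIPBL are open at 10 h.

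Set directly against each other, Nut 10h was lower than Nut 1h for 9 of the 10 genes, where 33.7% of tested genes were called lower. Log2 fold changes of these 9 ran from -0.53 in PDS5A to -1.87 in SMC3, with RAD21 at -1.68, PDS5B at -1.61, STAG1 at -1.47, STAG2 at -1.30, SMC1A at -1.28, NIPBL at -0.82 and CTCF at -0.75 (adjusted p at most 0.000165 for each of them). The median over the 10 genes was -1.29, beside -0.02 over all tested genes. With the offset for GC content the median was -0.72, and 8 were lower, all but PDS5A (0.031) and YY1 (-0.02), where 29.7% of tested genes were lower. SMC1A was then at -1.13, RAD21 and SMC3 were at -1.10, and NIPBL was at -0.17. This comparison shares its libraries with both others and is no separate evidence for either.

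Scaled by length, the genes of the ring were not expressed at equal levels. With normalised counts divided by the length of the longest coding transcript in kb, RAD21 stood highest at Nut 0h, at 2965 ± 116 (SD, n = 2). PDS5A at 1117 ± 18.3 and YY1 at 1096 ± 105 came next and their libraries overlapped. CTCF at 807 ± 19.3, SMC1A at 692 ± 33.7, SMC3 at 510 ± 19.3 and STAG2 at 464 ± 39.9 followed without overlap, though the lowest SMC3 library (496) and the highest STAG2 library (492) nearly met. STAG1 at 212 ± 30.5 and NIPBL at 184 ± 21.3 overlapped, and PDS5B was lowest, at 124 ± 11. With the union of all exons as the length, YY1 came before PDS5A and SMC1A before CTCF, and with the longest transcript of any type only the latter pair changed places. The longest coding transcript of RAD21 has 3704 bases, its longest of any type 8316 and its exon union 14382. RAD21 still comes first with the latter 2 lengths, but its lead is much smaller with either. Ratios between genes and shares within a pair move with the choice of length too. The exon union has 10829 bases in SMC1A and 15505 in SMC3, beside 9930 and 5522 for their longest coding transcripts. At Nut 1h YY1 fell from the third to the seventh place on this scale, at 843 ± 31.5, below SMC1A, SMC3, CTCF and STAG2, which lay between 968 and 1022. These levels carry no correction for GC content, with which the early log2 changes of SMC3 and STAG2 were 0.16 and 0.23 and that of YY1 -0.53.

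The balance between subunits also differed between times, with every ratio computed from the same per-kb levels within a library. With 2 libraries against 2, the exact permutation test cannot go below a two-sided p of 0.33, so these ratios are given as values. SMC3 had the largest fall of the genes described, so higher ratios to it at Nut 10h than in control cells follow from its choice as the denominator. NIPBL to SMC3 was 0.34 and 0.38 in control cells, 0.354 and 0.32 after 1 h, and 0.679 and 0.707 after 10 h, so that both late libraries lay above the others. STAG1 and STAG2 together stood at 1.26 and 1.39 times SMC3 in control cells, 1.48 and 1.38 times after 1 h, and 2.04 times in both libraries after 10 h. PDS5A and PDS5B together stood at 2.46 and 2.41 times SMC3 in control cells, 1.62 and 1.51 times after 1 h, and 3.68 and 3.58 times after 10 h.

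Within the ring, RAD21 to SMC3 was 5.81 and 5.82 in control cells, 5.54 and 5.24 after 1 h, and 6.32 and 5.96 after 10 h, also with no overlap. SMC1A to SMC3 was 1.35 and 1.37 in control cells, 1.04 and 1.03 after 1 h, and 1.65 and 1.47 after 10 h. The ratios carry no correction for GC content, and with the offset described further on the early order of these genes turned, with SMC1A at 0.39 and SMC3 at 0.16 on the log2 scale at Nut 1h. CTCF to RAD21 was 0.275 and 0.269 in control cells, 0.177 and 0.191 after 1 h, and 0.374 and 0.328 after 10 h, lowest early and highest late with no overlap. With the GC-content offset CTCF was at 0.14 and RAD21 at 0.24 at Nut 1h, closer together than the 0.28 and 0.84 without it.

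STAG1 made up 30.4% and 32.2% of the STAG1 and STAG2 level in control cells, 30.5% and 32% after 1 h, and 29.7% and 27.9% after 10 h. These shares rest on lengths of 6062 bases for STAG1 and 6179 for STAG2. Their exon unions have 7843 and 15987 bases, with which the STAG1 share would be higher. PDS5B made up 9.55% and 10.5% of the PDS5 level in control cells, 14.9% and 15.2% after 1 h, and 7.21% and 8.18% after 10 h, and its 3 conditions did not overlap. In raw counts the PDS5B share was 9.96% in Nut 0h replicate 1 (95% Wilson interval 9.36 to 10.6%, 9046 reads of the pair), 15.5% in Nut 1h replicate 1 (14.8 to 16.2%) and 7.52% in Nut 10h replicate 1 (6.92 to 8.17%). These intervals cover counting error only.

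**Figure D3:**
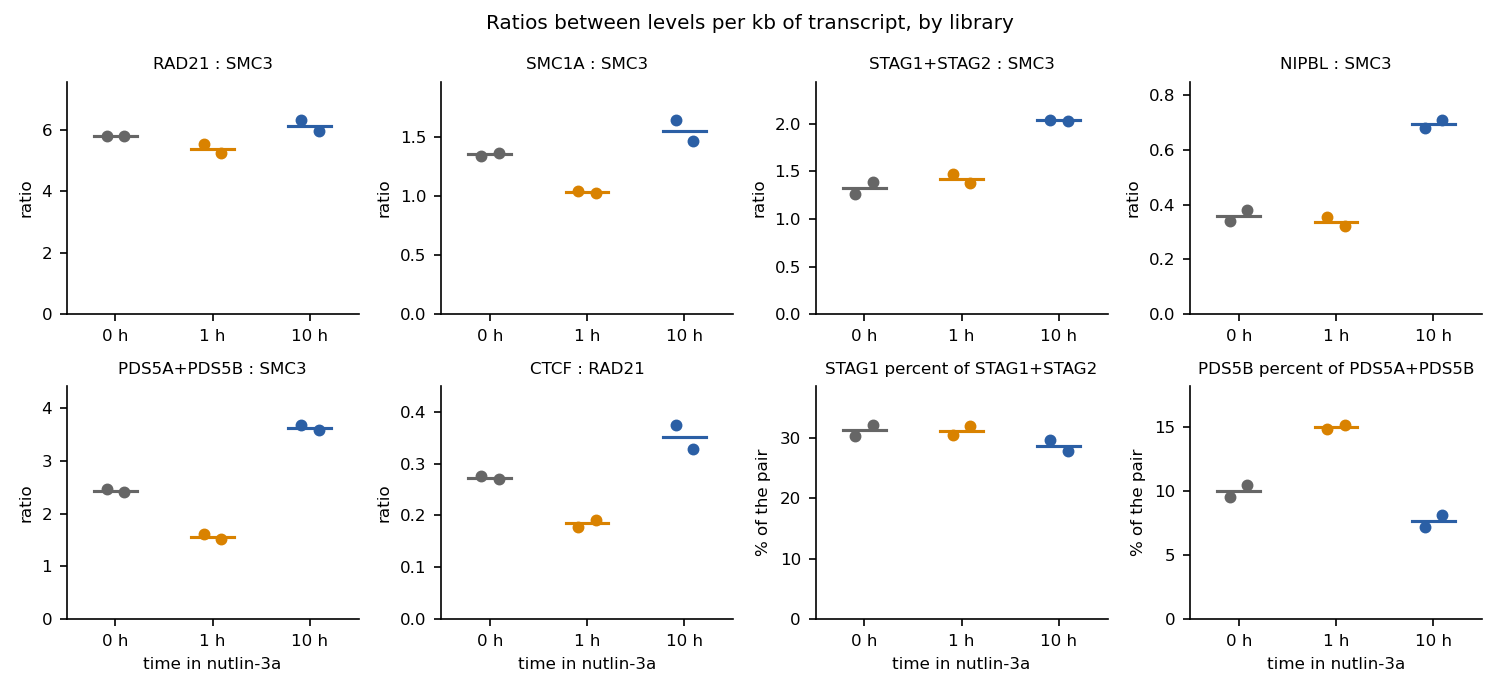
Ratios of levels per kb of transcript (first 6 panels) and share of a paralogue in its pair in percent (last 2 panels), for each library against time in Nutlin-3a, with axes from 0. Points are libraries and bars the mean of 2. NIPBL, STAG and PDS5 levels relative to SMC3, the gene with the largest fall at 10 h, are highest at 10 h, and the PDS5B share is highest at 1 h.

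At Nut 1h the change of a gene went with the base composition of its transcript across the whole table. Over 16243 tested genes with a known GC content, the correlation across genes of log2 fold change with GC content stood at -0.70 after 1 h, at -0.03 after 10 h and at 0.62 for Nut 10h against Nut 1h, given as a description, since genes share libraries and are not independent. The 10 genes lie at the AT-rich side, from 36.4% GC in PDS5B to 47.7% in CTCF. Of the tested genes with 35 to under 40% GC, where PDS5B, STAG2, SMC3 and NIPBL lie, 83.2% were called higher at Nut 1h. From 40 to under 45%, where STAG1, RAD21 and PDS5A lie, it was 65.8%, and from 45 to under 50%, with SMC1A, YY1 and CTCF, it was 35.5% higher and 12.6% lower. At Nut 10h the share called lower was 13.9%, 13.8% and 12.7% in the same 3 ranges.

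With a smooth offset for GC content in each library, the early values of the 10 genes were lower and the late ones moved little. At Nut 1h their median was then 0.17 in place of 0.85. The 6 genes called higher were STAG1 at 0.42 (adjusted p = 0.000216), SMC1A at 0.39, RAD21 at 0.24, STAG2 at 0.23, NIPBL at 0.18 and SMC3 at 0.16 (adjusted p = 0.0464), and the 2 called lower were YY1 at -0.53 and PDS5A at -0.36. CTCF at 0.14 (adjusted p = 0.086) and PDS5B at 0.07 (adjusted p = 0.506) did not pass. At Nut 10h the median was -0.52, and 9 of the 10 were called lower, all but NIPBL at 0.0096. The share of counts on the 13 protein-coding mitochondrial genes was 3.96% and 4.84% in control cells, 7.54% and 7.28% after 1 h, and 5.06% and 5.48% after 10 h. With those counts left out before normalization the median at Nut 1h was 0.82, and PDS5A was the only one of the 10 to lose its call (0.21, adjusted p = 0.0659).

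**Figure D4:**
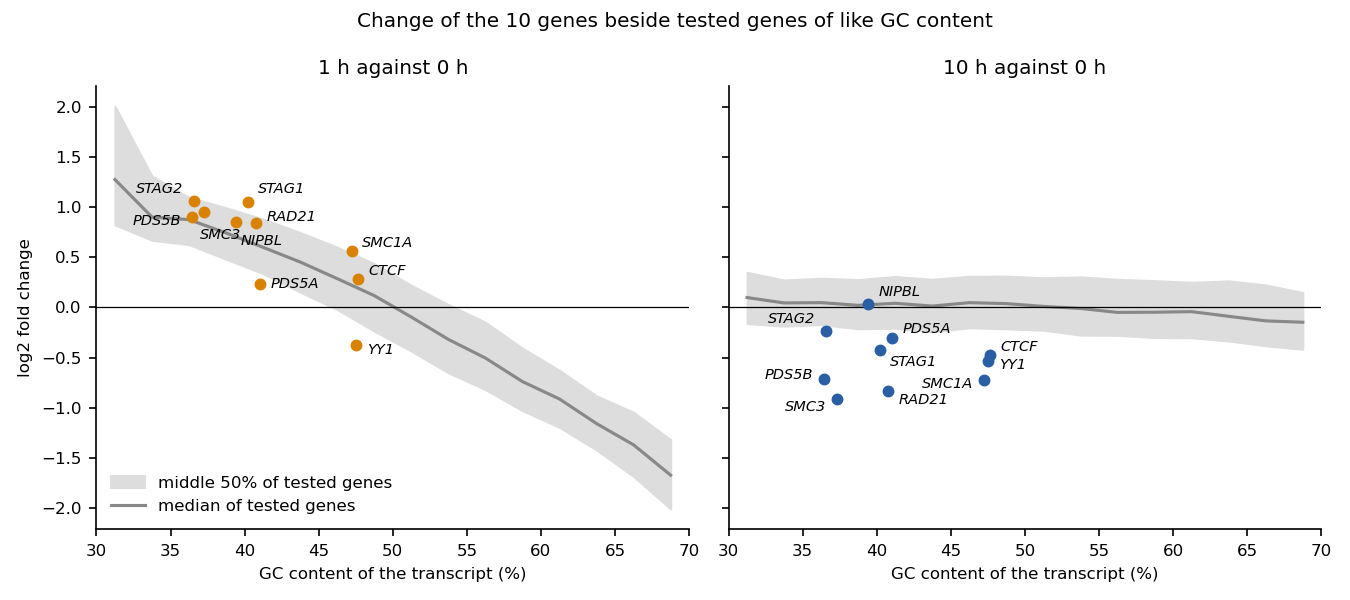
Log2 fold change against Nut 0h (vertical axis) against GC content of the transcript in percent for the 10 genes (points), with the median (line) and middle 50% (band) of tested genes in bins of GC content. At 1 h most of the genes lie on or near a band that slopes down with GC content, with PDS5A and YY1 below it. At 10 h the band is flat and all but NIPBL lie below its median.

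Most genes in a list of cohesin partners were called lower at Nut 10h. MAU2 and WAPL, which act in loading and release, were not called. Of 12 such genes, all tested, 8 fell, none rose and 4 did not pass, with a median of -1.12 on the log2 scale, where 14.9% of all tested genes were called lower. CDCA5, or sororin, which protects cohesin on replicated chromatids, fell by 1.88 ± 0.10 on the log2 scale, from 5194 and 5036 to 1439 and 1333 normalised counts (adjusted p = 6.42e-09). ESPL1, the separase that cuts RAD21, fell by 1.75 ± 0.09 (adjusted p = 7.77e-09), ESCO2, the S-phase acetyltransferase of SMC3, by 1.51 ± 0.11 (adjusted p = 1.07e-07), and SGO1, the protector of centromeric cohesin, by 1.41 ± 0.13 (adjusted p = 1.96e-06). The 4 that did not pass were MAU2, the partner of NIPBL in loading (0.17, adjusted p = 0.206), WAPL, the release factor (-0.23, adjusted p = 0.08), ESCO1 (-0.02, adjusted p = 0.91) and the SMC3 deacetylase HDAC8 (0.23, adjusted p = 0.14). The 95% confidence interval of WAPL was -0.43 to -0.03, and both its Nut 10h libraries lay below both control libraries. For MAU2 and HDAC8 both lay above. The named genes that fell act on sister chromatid cohesion during and after DNA replication.

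At Nut 1h the same list was split, with 6 higher and 6 lower and a median of 0.08, where 34.5% of all tested genes were higher and 32.3% lower. WAPL rose by 0.82 ± 0.09 (adjusted p = 3.93e-06) and MAU2, with 57.2% GC, fell by 0.68 ± 0.10 log2 units (adjusted p = 2.99e-05), while its partner NIPBL rose. Tested genes in the GC bin of MAU2, centred at 56.25%, had a median of -0.50, and NIPBL was at 0.18 with the GC-content offset. ESCO2 was higher by 0.91 ± 0.10, ESPL1 lower at -0.67 ± 0.09, and SGO1 (0.47) and CDCA5 (-0.37) turned to -0.23 and 0.062 with the GC-content offset.

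Condensin compacts chromosomes in mitosis with related SMC subunits. All 8 condensin genes fell at Nut 10h, with a median of -1.06, where 14.9% of tested genes were lower. The kleisin NCAPH fell by 1.63 ± 0.09 log2 units (adjusted p = 1.54e-08), NCAPG by 1.52 ± 0.09 (adjusted p = 2.84e-08), SMC4 by 1.28 ± 0.09 (adjusted p = 1.06e-07) and NCAPD3 by 1.11 ± 0.09 (adjusted p = 4.05e-07). At Nut 1h, 4 were higher, 1 lower and 3 did not pass, beside 34.5% higher and 32.3% lower of tested genes, and the higher values of SMC4 (0.71) and NCAPG (0.55) turned to -0.078 and -0.16 with the GC-content offset. NCAPH at 0.10 and NCAPD3 at 0.07 were among those that did not pass.

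The SMC5/6 complex, the third of the SMC complexes, acts in DNA repair. At Nut 10h, 4 of its 6 genes fell and 2 did not pass, with a median of -0.35, where 14.9% of tested genes were lower. SMC6 fell by 0.63 ± 0.10 log2 units (adjusted p = 0.000235), NSMCE4A by 0.54 ± 0.10 (adjusted p = 0.000776) and SMC5 by 0.35 ± 0.11 (adjusted p = 0.0261), and NSMCE1 was at -0.02 (adjusted p = 0.881). At Nut 1h, 3 were higher, with SMC5 at 1.04 and SMC6 at 0.83, 2 were lower, with NSMCE1 at -0.47, and 1 did not pass, NSMCE4A at -0.07, beside 34.5% higher and 32.3% lower of tested genes. SMC5 and SMC6 have 36.5% and 37.6% GC, and of tested genes with 35 to under 40% GC 83.2% were called higher. In the GC bin centred at 36.25% the median was 0.88.

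Of 12 other boundary and looping factors, 11 were tested at Nut 10h, and 2 rose, 2 fell and 7 did not pass, with a median of -0.06, beside the 14.1% higher and 14.9% lower of all tested genes. The zinc finger protein MAZ, which is found with CTCF at boundaries, fell by 1.10 ± 0.12 log2 units (adjusted p = 1.08e-05), and LDB1, a looping cofactor of enhancers, rose by 0.31 ± 0.10 (adjusted p = 0.0258). TOP2B, the topoisomerase found at loop anchors, was at 0.08 (adjusted p = 0.574), and YY2, a YY1 paralogue, at 0.48 (adjusted p = 0.276). At Nut 1h, 5 were higher, 3 lower and 3 did not pass, close to the 34.5% higher and 32.3% lower of tested genes. MAZ, with 66.4% GC, was at -2.17 ± 0.13, LDB1 at -0.96 ± 0.10, TOP2B at 0.96 ± 0.10, and YY2, with 18.4 and 24.4 normalised counts in control cells and 69.2 and 65.4 after 1 h, at 1.65 ± 0.28. Tested genes in the GC bins of MAZ, LDB1 and TOP2B, centred at 66.25, 56.25 and 41.25%, had medians of -1.37, -0.50 and 0.60. With the GC-content offset MAZ turned from 1.07 to -0.22 for Nut 10h against Nut 1h. CTCFL, the germline paralogue of CTCF, had no count in any library.

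**Figure D5:**
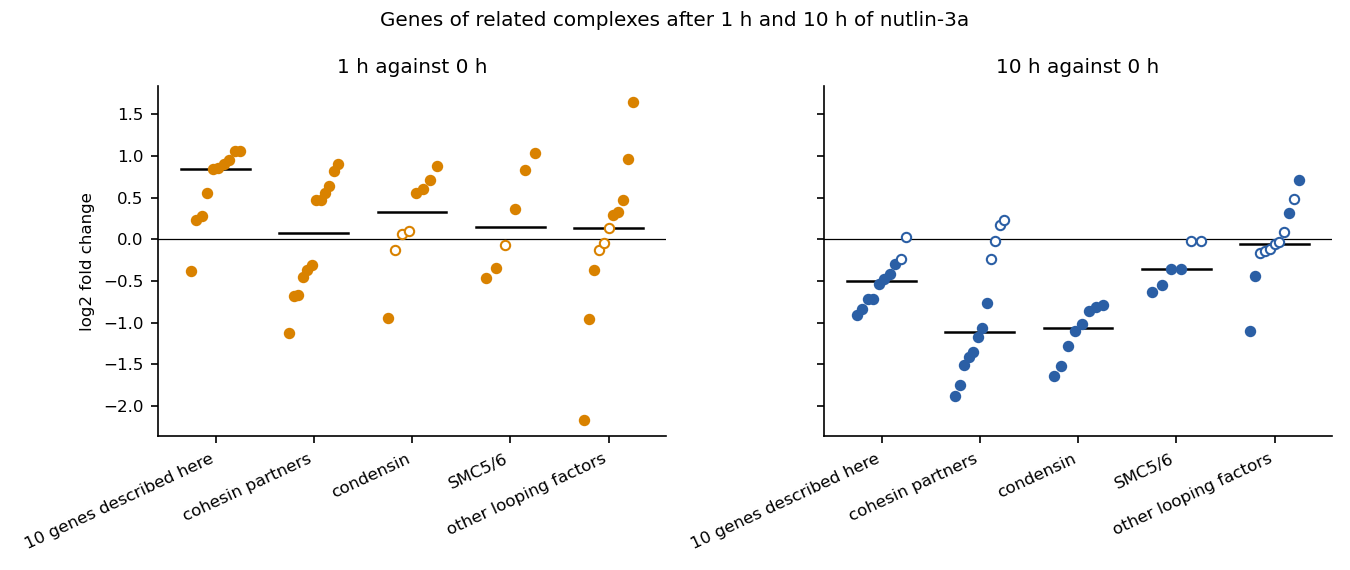
Log2 fold change against Nut 0h (vertical axis) for the 10 genes described here and 4 other gene lists, after 1 h (left) and 10 h (right). Each point is a gene, filled where the edgeR test was passed, and bars are medians. At 10 h all 8 condensin genes lie below 0, and of the cohesin partners 8 fell and 4 did not pass the test.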

How the data were processed

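Reads of 6 libraries were trimmed with Trim Galore 0.6.6, aligned to GRCh37.p13 with STAR 2.7.0f and counted with featureCounts (Subread 2.0.0), per the submitters' processing notes and the methods. The strand setting and the treatment of multimapping reads are not given in the sources used here. The authors deposited these values as raw read counts per gene. A second table, with the authors' own DESeq2 fold changes and p-values, was used only to pair gene identifiers with symbols.

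Counts were filtered with filterByExpr, normalised by TMM and tested with edgeR 4.0.16 (quasi-likelihood, all 6 libraries, condition as the only term, 3 residual degrees of freedom) in R 4.3.3. The variance estimate of each gene was moderated across genes, with a median of 10.7 prior degrees of freedom. P-values were adjusted by Benjamini-Hochberg over 16565 genes and called at 0.05. The test was run first on simulated data with known changes. Normalised counts are scaled to a common library size. Replicate counts differed by more than sampling noise. Positions, lengths and GC content came from GENCODE 44 on GRCh37, using the longest coding transcript.

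All 10 genes are named. For other lists, up to 4 genes were chosen by the largest change among those called or by a defining role, and some others are named beside them. Genes and lists were chosen with earlier results of these data known. Alternatives were other normalizations (RLE size factors, upper quartile, library totals), filters, tools (DESeq2 1.42.0, limma-voom 3.58.1), designs, GC-content and length offsets (loess, span 0.4), a fold threshold and each library left out. Figures were drawn with matplotlib.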

Additional observations from a re-analysis of the deposited data

How the results depend on the processing

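Of 200 values of the 10 genes under alternatives in each comparison, 166 kept their direction and call at Nut 1h, 179 at Nut 10h and 195 for Nut 10h against Nut 1h. With a fold threshold (absolute log2 fold change of at least 1) added, 3974 of the 16565 tested genes were called at Nut 1h. Of the 10, 2 were then higher (STAG1 and STAG2) and 0 lower. At Nut 10h 1135 genes were called, with 0 of the 10. For Nut 10h against Nut 1h 4746 genes were called, with 6 of the 10 lower. With the GC-content offset 2 of the 10 were lower at Nut 1h, and single values turned: at Nut 1h PDS5A -0.36 (-0.036 with the length offset), CDCA5 0.062, SGO1 -0.23, REC8 0.17, NCAPG -0.16 and SMC4 -0.078, and for Nut 10h against Nut 1h PDS5A 0.031, REC8 -0.27 and MAZ -0.22. With the length offset NCAPD3 was at -0.22 and NSMCE4A at 0.24 at Nut 1h. The cause was not tested. With single libraries left out, the median of the 10 was 0.77 to 0.92 at Nut 1h, beside 0.0085 to 0.054 over all tested genes. At Nut 10h it was -0.54 to -0.48, beside -0.0027 to 0.0094. Calls of the 10 that were lost in this way are given with each gene. In raw counts the PDS5B share at Nut 1h was 15.6%. Depth limits the germline subunits, with 19.1 normalised counts of SMC1B at most.

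The labels number the replicates at each time without saying whether equal numbers belong together. The correlation of replicate differences between conditions was -0.13, 0.20 and -0.12, which cannot decide this. With a replicate block 10979, 4893 and 11189 genes were called in the 3 comparisons, in place of 11077, 4810 and 11246, and of the 10 genes only PDS5A at Nut 1h lost its call (0.23, adjusted p = 0.0501). With the replicate block and the GC-content offset 7321 genes were called at Nut 1h, 5 of the 10 higher (SMC3, at 0.16, lost its call, adjusted p = 0.0582) and 2 lower, with PDS5A at -0.36, CDCA5 at 0.062, SGO1 at -0.24, REC8 at 0.17, NCAPG at -0.16 and SMC4 at -0.077. For Nut 10h against Nut 1h PDS5A was then at 0.031, REC8 at -0.28 and MAZ at -0.22.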

Other observations

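Subunits that replace the mitotic ones in germ cells were at low counts in this line. RAD21L1 had at most 3 counts in a library. SMC1B had 10.6 and 5.63 normalised counts in control cells, 19.1 and 8.81 after 1 h, and 1.93 and 0.931 after 10 h (log2 fold change at Nut 10h -2.41 ± 0.83, edgeR adjusted p = 0.0433). STAG3, the meiotic paralogue of STAG1 and STAG2, had 29 and 44.1 normalised counts in control cells, 45.1 and 36.5 after 1 h, and 79.3 and 78.2 after 10 h, a rise of 1.10 ± 0.26 at Nut 10h (adjusted p = 0.00526) while STAG1 fell. REC8 was at -0.62 ± 0.19 at Nut 1h (adjusted p = 0.0106) and at 0.17 with the GC-content offset, and at -0.15 at Nut 10h (adjusted p = 0.574).

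Exons of 2 of the 10 genes overlap those of a neighbour with more than 12 counts. UTP23, a ribosome biogenesis factor that shares 576 bases with RAD21, was at 0.93 at Nut 1h (adjusted p = 2.50e-06) and at 0.0029 at Nut 10h (adjusted p = 0.99), where RAD21 fell. PCCB, a propionyl-CoA carboxylase subunit that shares 1661 bases with STAG1, was at 0.10 at Nut 1h (adjusted p = 0.371) and at 0.25 at Nut 10h (adjusted p = 0.0604). The processed pseudogene YY1P1 had at most 7 counts in a library.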
